A study of Mus musculus with 16 samples.

Results

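The proteasome subunit genes of young and aged hematopoietic stem cells (HSCs) were examined for 3 histone marks at their promoters. The genes were the protein-coding genes of the GENCODE M21 annotation (mouse build mm10) whose symbols read Psm, a letter from a to g and a number, which gave 50 genes of 21851. HSCs were sorted from the bone marrow of C57BL/6 mice on surface markers. They were positive for Sca-1, c-kit and CD150 and negative for lineage markers, the IL-7 receptor (IL-7Rα), Flt3, CD34 and CD48. The labels name no genetic change or treatment at either age. The young mice were 10 weeks old and the aged mice 20 months old. Chromatin was immunoprecipitated and sequenced (ChIP-seq), with 2 libraries for each of H3K4me3, H3K27me3 and H2AK119ub1 and 2 input libraries at each age, 16 libraries in 8 groups in all. The values analysed came from 1 pooled peak list per mark and age, 6 lists in total, and peak lists of single libraries were not analysed here. The lists used hold no replicate values, so no difference between the ages was tested and every comparison sets a pair of lists side by side.

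The proteasome degrades proteins tagged with ubiquitin. Its 20S core is a barrel of stacked rings, with alpha subunits (Psma genes) at the gates and beta subunits (Psmb genes) that hold the catalytic sites. The 19S regulatory particle caps the barrel, and its ATPases (Psmc genes) unfold the substrate while its other subunits (Psmd genes) bind and remove ubiquitin. Activators (Psme), an inhibitor (Psmf1) and assembly chaperones (Psmg genes and a few of the Psmd genes) complete the set. Cells of nearly every type need this machine, and blood cells exposed to interferon exchange the catalytic beta subunits for those of the immunoproteasome. H3K4me3 marks the promoters of active genes, whereas H3K27me3 and H2AK119ub1 are laid down by Polycomb complexes at silent or poised genes. The symbol rule also takes in Psmc3ip, which acts in meiotic recombination and is not a proteasome subunit. It is counted among the 50 and named apart.

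As a check of the labelled cell type, the stem cell genes Procr, Mecom and Hlf had H3K4me3 at both ages and Kit in aged HSCs alone, whereas Ly6a and Slamf1, genes of the sort gate, had none at either age. None of 6 genes of mature blood cells (Cd3e, Itgam, Ly6g, Hbb-bs, Cd4 and Ms4a1) had H3K4me3 at either age. Of all protein-coding genes 60.4% had none at either age, Ly6a and Slamf1 among them. Absence from the lists thus does not separate genes of mature cells from those of stem cells. The young H3K4me3 list held 11371 peaks and the aged list 6723. The read pileup at each summit, recovered from the fold enrichment and the p-value of the peak, had a median of 20.0 reads in the young list and of 19 in the aged list, and no peak of either list stood on fewer than 13 reads. A gene without a listed peak may therefore still have carried reads, and a statement that a gene had no peak means only that it was not listed.

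The promoters of these genes are shown where a sequence bears on the peaks, with the stretch that precedes the start site first. Promoter sequences of 300 bases (250 before and 50 after the start) were taken from RefSeq, build GRCm38.p6, and found for 42 of the 50 genes. The genes without one were Psma8, Psmb1, Psmb2, Psmb7, Psmc3, Psmd3, Psmd7 and Psmg2. The strongest aged H3K4me3 peak of the set lay just downstream of the stretch shown for Psmd14, the deubiquitinase of the 19S lid. The stretch of Psmg1, a chaperone of 20S assembly, precedes a peak seen at both ages. Both are 120 bases that end at the base before the start site and hold no annotated exon, and capitals mark the ETS motif described below.
Psmd14, chr2:61711574-61711693, plus strand: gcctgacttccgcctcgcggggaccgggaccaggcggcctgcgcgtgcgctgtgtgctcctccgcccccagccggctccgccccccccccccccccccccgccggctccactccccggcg
Psmg1, chr16:95990961-95991080, minus strand: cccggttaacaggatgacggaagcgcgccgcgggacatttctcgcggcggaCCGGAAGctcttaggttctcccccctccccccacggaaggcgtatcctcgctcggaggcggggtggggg

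Among 8 motifs searched on both strands, the ETS motif (CCGGAAG) stood in 15 of the 42 promoters (35.7%), against 12.4% of the 16530 protein-coding promoters of the same length. It was found in 6 of 15 promoters with H3K4me3 at both ages (40.0%), 7 of 17 in young only (41.2%), 1 of 4 in aged only and 1 of 6 at neither age. The sites lay between positions -132 and 23 relative to the start base (position 0), and in Psmd13 the motif ended on the start base itself. The 30-base windows below, on the strand of the gene, show it in capitals (as written or as its reverse complement) for the 6 genes with H3K4me3 at both ages, for Psmc1, listed in aged HSCs only, and for Psmc2, listed at neither age.
Psmc6, chr14:45329713-45329742, plus strand: aggcgggccagCCGGAAGgggcggagccag
Psmd4, chr3:95042721-95042750, minus strand: ttacagctgttCCGGAAGctgctgcgaagg
Psmd12, chr11:107479500-107479529, plus strand: tgagcgggcgaCTTCCGGtgcgagtgacga
Psmd13, chr7:140882377-140882406, plus strand: cgcccgcggtgCCGGAAGtgagcgagcact
Psme4, chr11:30771711-30771740, plus strand: gtggccccgccCCGGAAGtgacttgaggcc
Psmg1, chr16:95991011-95991040, minus strand: ctcgcggcggaCCGGAAGctcttaggttct
Psmc1, chr12:100110163-100110192, plus strand: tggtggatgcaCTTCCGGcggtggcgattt
Psmc2, chr5:21785180-21785209, plus strand: accagtgagcaCTTCCGGgatggggctcgc
The same core was read in either direction, and genes of every age group hold it.

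The YY1 motif (AAGATGG) was found in 8 of the 42 promoters, against 6.40% of all. It was found in 2 of 15 promoters with H3K4me3 at both ages (Psmc5 and Psme2), 4 of 17 in young only (Psma2, Psmb6, Psmc4 and Psmd8), 1 of 4 in aged only (Psmc1) and 1 of 6 at neither age (Psme2b). In Psma2 and Psmc5 it lay after the start site, and in Psmc4 and Psmd8 before it. The windows of these 4 genes are shown as examples of each position.
Psma2, chr13:14613261-14613290, plus strand: ctttccgggtaAAGATGGcagagcgcggtt
Psmc4, chr7:28050182-28050211, minus strand: agcgcaggaacCCATCTTgggggcggagcc
Psmc5, chr11:106256177-106256206, plus strand: ccgagagagggAAGATGGcgcttgatgggc
Psmd8, chr7:29180769-29180798, minus strand: gcggtacccttAAGATGGacattccacagg
The nuclear respiratory factor motif (GCATGCGC) was found in 3 promoters (7.14%, against 3.78% of all). In Psma2 and Psmg1 a site on each strand overlapped to form a palindrome, and capitals mark both.
Psma2, chr13:14613105-14613134, plus strand: ggcccctcttGCGCATGCGCaagggtcaaa
Psmc5, chr11:106256107-106256136, plus strand: ggtgacccaggGCGCATGCtttcgcctccg
Psmg1, chr16:95990911-95990940, minus strand: actgcgggccggcGCGCATGCGCtgtctgg
Psma2 and Psmg1 were among the genes with the strongest young peaks, described below. Psmc5 was not, and the others of those genes (Psmb8, Psme2, Psmd8, Psma5 and Psmd4) lacked the motif. No link between the motif and peak strength was tested.

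The core of the antioxidant response element (TGACNNNGC), the site read by the factors Nfe2l1 and Nfe2l2 that drive proteasome genes, was found in 6 of the 42 promoters (14.3%), a share close to the 13.3% of all promoters. The 6 sites are shown because this motif is the textbook control element of these genes.
Psmb5, chr14:54618023-54618052, minus strand: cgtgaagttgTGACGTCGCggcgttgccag
Psmb6, chr11:70525338-70525367, plus strand: ctaaagagagTGACGGAGCgctttacgacg
Psmc6, chr14:45329587-45329616, plus strand: ccagccagtaGCTAAGTCAggcattgctca
Psmd12, chr11:107479278-107479307, plus strand: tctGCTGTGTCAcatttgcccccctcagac
Psmd9, chr5:123228149-123228178, plus strand: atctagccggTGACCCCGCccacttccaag
Psme4, chr11:30771758-30771787, plus strand: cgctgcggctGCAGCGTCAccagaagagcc
Of these 6 genes, Psmc6, Psmd12 and Psme4 had H3K4me3 at both ages, Psmb6 in young only, and Psmb5 and Psmd9 at neither age. The GC box (GGGCGG, 54.8% against 48.4%), the CCAAT box (33.3% against 38.7%), the TATA box (TATAAA, 9.52% against 12.9%) and the core of the interferon-stimulated response element (GAAANNGAA, 14.3% against 8.34%) were the other motifs searched. No motif share was tested, and a match describes letters in the reference sequence only. The start used by RefSeq lay over 100 bp from the principal start of the annotation in 6 of the 42 genes.

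H3K4me3 was listed at the promoters of most proteasome subunit genes in young HSCs and of fewer in aged HSCs. A gene was counted when a peak overlapped the 1 kb on either side of one of its start sites by at least 1 bp. In young HSCs 36 of 50 genes had a peak (72.0%, Wilson 95% interval 58.3 to 82.5), against 33.8% of all protein-coding genes. In aged HSCs 24 of 50 had a peak (48.0%, 34.8 to 61.5), against 23.3% of all. These intervals, like all those given for shares here, cover counting over genes and not the spread between animals. The aged list is shorter as a whole, and the share of all genes was lower in it too. When the young list was shortened to the 6723 peaks with the highest −log10 q-value (the q-value is the p-value adjusted for multiple testing), 28 genes remained (56.0%, 42.3 to 68.8), against 23.4% of all genes, and the difference between the ages shrank from 12 genes to 4.

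**Figure D1:**
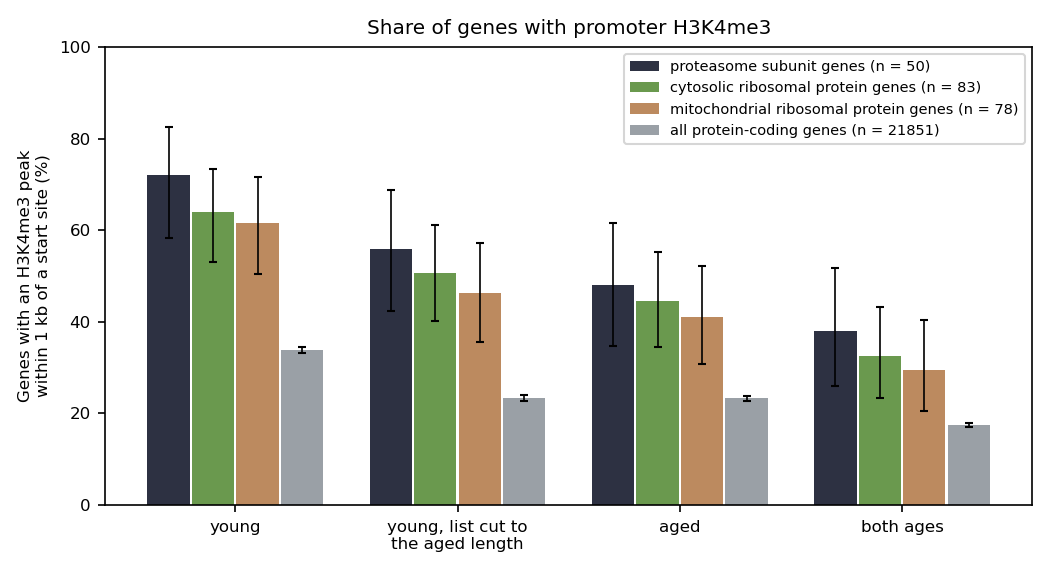
Share of genes with an H3K4me3 peak within 1 kb of a start site, in percent, for proteasome subunit genes, cytosolic and mitochondrial ribosomal protein genes and all protein-coding genes, with Wilson 95% intervals as error bars. The proteasome share was 72.0% in young HSCs, 56.0% with the young list cut to the aged length, 48.0% in aged HSCs and 38.0% at both ages, above the share of all genes each time and overlapping the intervals of both ribosomal sets.

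By age, 19 genes had H3K4me3 at both ages (38.0%, against 17.5% of all genes), 17 in young only (34.0%, against 16.3%), 5 in aged only (10.0%, against 5.78%) and 9 at neither age (18.0%, against 60.4%). The genes at both ages were Psma1, Psma3, Psmb2, Psmb7, Psmb8, Psmb9, Psmc3, Psmc5, Psmc6, Psmd3, Psmd4, Psmd5, Psmd12, Psmd13, Psmd14, Psme2, Psme4, Psmf1 and Psmg1. Those in young only were Psma2, Psma4, Psma5, Psma6, Psmb3, Psmb4, Psmb6, Psmb10, Psmc3ip, Psmc4, Psmd2, Psmd6, Psmd8, Psmd11, Psme1, Psme3 and Psmg3. Of the 17 young-only genes 11 stayed in the shortened young list, as did 17 of the 19 with a peak at both ages. Over all genes the share at both ages was 13.0% with the shortened list, beside the 17.5% given above. For the young-only genes no such share over all genes is given here.

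The ribosomal protein genes, another set of subunits needed in every cell, gave shares close to these. Of 83 cytosolic ribosomal protein genes 53 had young H3K4me3 (63.9%, 53.1 to 73.4) and 37 aged H3K4me3 (44.6%, 34.4 to 55.3). Of 78 mitochondrial ribosomal protein genes the counts were 48 (61.5%, 50.4 to 71.6) and 32 (41.0%, 30.8 to 52.1). The intervals of all 3 sets overlapped at each age. With these numbers of genes no difference between the sets was tested.

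The median fold enrichment of the strongest peaks was close at both ages. The median best −log10 q-value and the median peak width summed over a gene were lower in the aged list. The strongest peak of each listed gene had a median fold enrichment over background of 4.49 in young HSCs (95% order-statistic interval 4.25 to 4.89, 36 genes), and the aged median was 4.51 (3.98 to 4.86, 24 genes). The medians over all listed genes were 4.25 and 4.23. The median of the best −log10 q-value was 6.31 in young and 5.14 in aged HSCs, beside 5.06 and 4.71 over all listed genes. The summed width of the peaks of a gene had a median of 460 bp in young and 392 bp in aged HSCs, beside 412 and 321 bp. The listed genes differ between the ages, and none of these differences was tested. The proteasome genes more often held several peaks in the same promoter, with 2 or more in 18 of 36 young genes (50.0%, against 32.2% of all listed genes) and in 8 of 24 aged genes (33.3%, against 20.5%). Of the 19 genes listed at both ages, 12 had the higher fold enrichment in young HSCs and 7 in aged HSCs (63.2% in young, against 52.0% of the 3825 genes of the annotation with a peak at both ages). Their medians were 4.84 in young and 4.60 in aged HSCs, beside 4.44 and 4.38 over those 3825 genes. In 17 of the 19 the peaks of the ages overlapped, Psmb9 and Psmc5 being the exceptions. The same share over all genes is not given here.

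**Figure D2:**
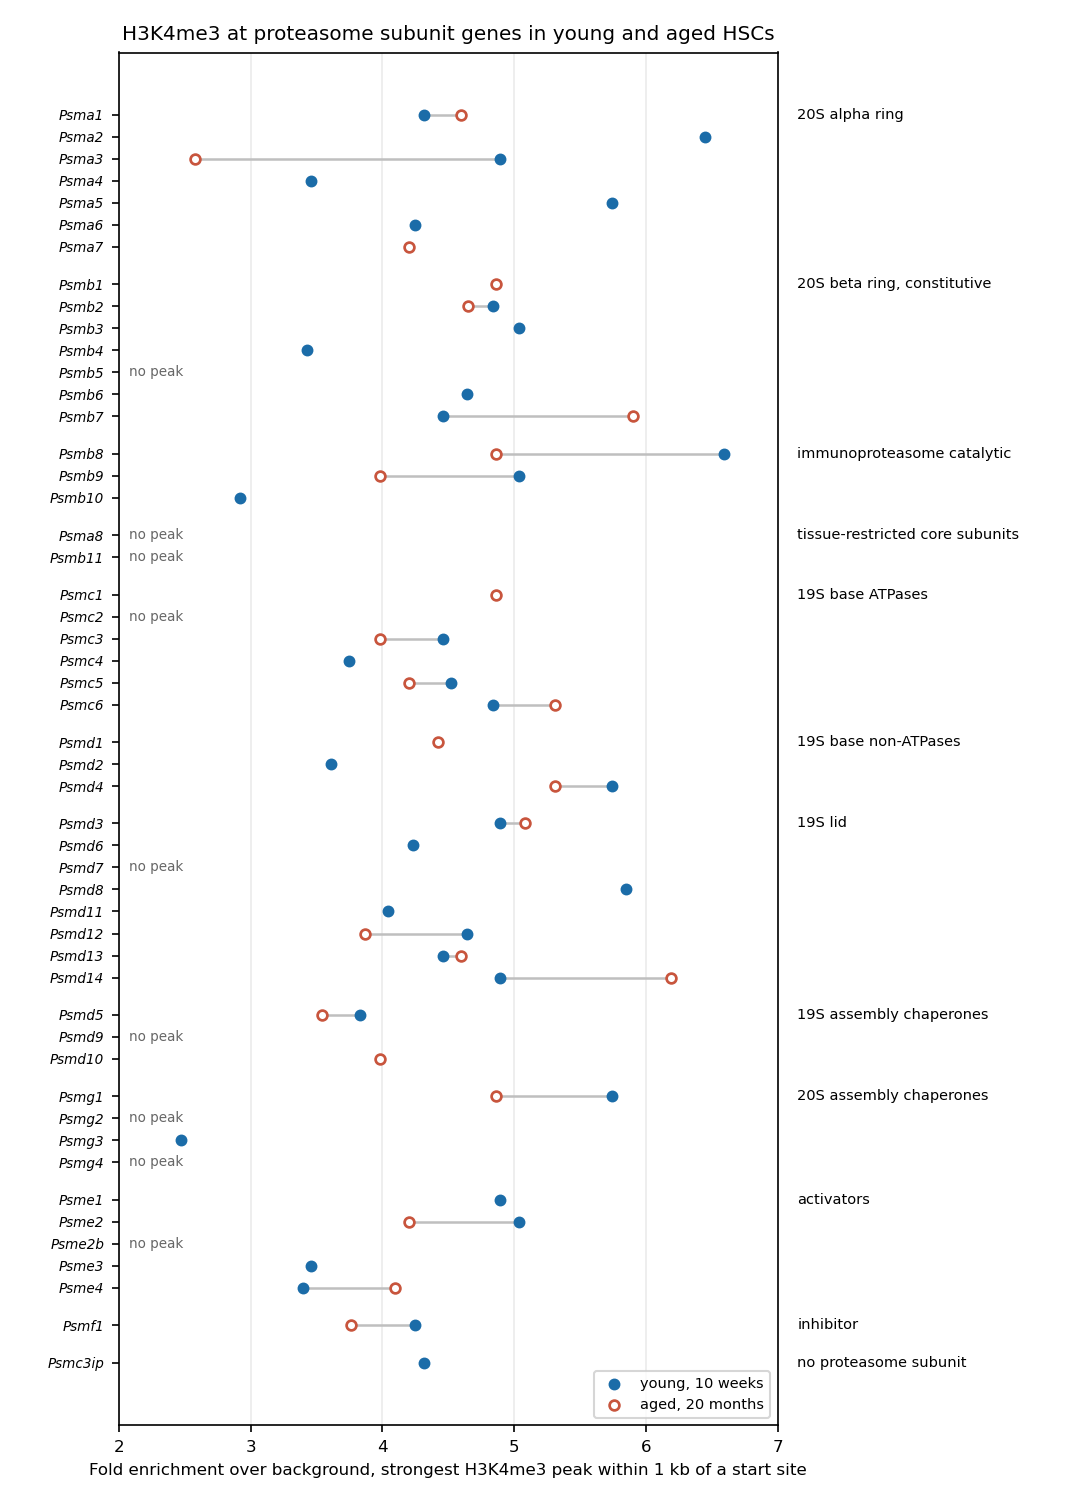
Fold enrichment over background (linear, horizontal axis) of the strongest H3K4me3 peak within 1 kb of a start site for each of the 50 genes, grouped by their place in the proteasome, with young HSCs as filled blue points, aged HSCs as open red points and a grey line joining the ages. Young values run from 2.47 to 6.59 and aged values from 2.58 to 6.19, and 9 genes have no peak at either age.

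The young list carried its strongest proteasome peaks at Psma2 and Psmb8, both with a −log10 q-value of 11.7. The Psma2 peak (chr13:14613255-14614031) was enriched 6.45-fold on a pileup of 31 reads (exact Poisson 95% interval 21.1 to 44.0, counting error only), and its summit lay 173 bp into the gene. Here and below, a summit distance is taken from the nearest annotated start site of the gene, which may lie inside the gene. No aged peak lay within 90263 bp of a Psma2 start site, so that the gene with one of the strongest young peaks was absent from the aged list. The Psmb8 peak (chr17:34198370-34198773) was enriched 6.59-fold on 30 reads (20.2 to 42.8) in young HSCs, with the summit 726 bp into the gene, and overlapped an aged peak of 4.86-fold on 21 reads (13.0 to 32.1, −log10 q-value 5.83, 754 bp). The intervals of the Psmb8 pileups overlapped.

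Psme2, Psmd8, Psma5, Psmd4 and Psmg1 followed in the young list. The Psme2 peak held the deepest pileup of the set, 36 reads (25.2 to 49.8), over a higher local background of 6.33 reads, which gave 5.04-fold and a −log10 q-value of 10.4. Psmd8 reached 5.85-fold on 28 reads with a −log10 q-value of 9.72, and Psma5, Psmd4 and Psmg1 tied at 5.74-fold, 26 reads and 9.02. Of the 7 genes with a young −log10 q-value of 9 or more, 4 also had an aged peak (57.1%), beside 300 of 469 genes of the annotation (64.0%). Psma2, Psma5 and Psmd8 were the 3 without one, with the nearest aged peaks 90263, 56443 and 57820 bp from a start site.

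In aged HSCs the strongest peaks stood at Psmd14 and Psmb7. The Psmd14 peak (chr2:61711767-61712162) was enriched 6.19-fold on 27 reads (17.8 to 39.3) with a −log10 q-value of 9.37 at 216 bp into the gene, whereas the young peak at the same place reached 4.89-fold on 22 reads (13.8 to 33.3) at 418 bp. Psmb7 had 5.90-fold on 26 reads in aged and 4.46-fold on 20 reads in young HSCs. Psmd3 (5.08-fold on 25 reads, −log10 q-value 7.22), Psmc6 and Psmd4 (both 5.31-fold, 7.02) completed the 5 strongest. All 5 were also listed in young HSCs, and the pileup intervals of Psmd14 overlapped between the ages.

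Among the alpha subunits, which form the outer rings and the gate of the 20S core, 6 of 7 had H3K4me3 in young HSCs, 3 in aged HSCs and 2 at both ages. Psma2 and Psma5 led in young HSCs, with the values given above and with the Psma5 summit 660 bp into the gene. Psma1 held 3 young peaks and 2 aged peaks, the strongest reaching 4.32-fold in young (29 reads, 44 bp into the gene) and 4.60-fold in aged HSCs (24 reads, 326 bp before the start, −log10 q-value 6.20). Psma3 showed the widest gap of the genes listed at both ages in favour of the young list, with 4.89-fold in young and 2.58-fold in aged HSCs, yet both peaks stood on 22 reads. The aged Psma3 peak lay over a local background of 7.91 reads against 3.70 under the young peak. Psma4 and Psma6 were listed in young HSCs only, at 3.46-fold and 4.25-fold.

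The constitutive beta subunits, which include the catalytic ones, gave 5 of 7 in young HSCs, 3 in aged HSCs and 2 at both ages. In young HSCs Psmb3 (5.04-fold, −log10 q-value 7.27, 24 reads, 149 bp into the gene) and Psmb2 (4.84-fold, 6.67, 23 reads, 256 bp into the gene) were the strongest. Psmb7, in which the trypsin-like site resides, led in aged HSCs with its summit 340 bp into the gene and a −log10 q-value of 8.79, followed by Psmb1. Psmb6, which carries the caspase-like site, was listed in young HSCs only (4.64-fold, 22 reads), and Psmb4 likewise (3.43-fold, 16 reads). Psmb5, the chymotrypsin-like subunit, had no peak at either age, and the nearest lay 22974 bp away in young and 23422 bp in aged HSCs. The 3 catalytic subunits of the constitutive core thus fell into different groups, with Psmb7 at both ages, Psmb6 in young only and Psmb5 at neither.

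The immunoproteasome subunits Psmb8, Psmb9 and Psmb10 were all listed in young HSCs, and Psmb8 and Psmb9 also in aged HSCs. Psmb9 shares its promoter with Tap1, the peptide transporter of antigen presentation, whose start site lies 38 bp away on the opposite strand. Its strongest young peak reached 5.04-fold on 24 reads (−log10 q-value 7.27) with the summit 618 bp before the start, and its aged peak 3.98-fold on 17 reads (3.65) with the summit 103 bp before the start. All peaks at Psmb9 lay nearer to a Tap1 start site, so they cannot be assigned to Psmb9 alone. Psmb10 was listed in young HSCs only, at 2.92-fold over a broad stretch of 882 bp, the widest peak of the set. The core subunits restricted to other tissues, Psma8 of the testis and Psmb11 of the thymus, had no peak at either age.

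In the 19S base, 4 of 6 ATPases had H3K4me3 at each age and 3 at both ages. Psmc6 (4.84-fold in young, 5.31-fold in aged) and Psmc5 (4.52-fold in young, 4.20-fold in aged) were the strongest in young HSCs by −log10 q-value, 6.67 and 6.65. The young Psmc6 peak stood on 23 reads with its summit 406 bp into the gene, and the aged one on 23 reads at 219 bp. The young Psmc5 peak stood on 25 reads at 102 bp, whereas the aged peak lay at 549 bp on 18 reads and did not overlap it. Psmc3 was listed at both ages (4.46-fold and 3.98-fold) and Psmc4 in young only (3.75-fold). Psmc2 had no peak within 1 kb at either age, although an aged peak lay 1180 bp and a young peak 1899 bp from a start site.

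Of the base subunits without ATPase activity, the ubiquitin receptor Psmd4 was listed at both ages, at 5.74-fold with the summit 157 bp into the gene in young and at 5.31-fold and 161 bp in aged HSCs. The scaffold Psmd2 was listed in young only (3.61-fold, −log10 q-value 3.15, 16 reads, 228 bp), and its partner Psmd1 in aged only. The lid, a ring of scaffold subunits around the deubiquitinase Psmd14, had 7 of 8 genes listed in young HSCs and 4 in aged HSCs, and the 4 aged genes (Psmd3, Psmd12, Psmd13 and Psmd14) were all listed in young HSCs too. Psmd8 led the lid in young HSCs, with its summit 373 bp into the gene, followed by Psmd3 and Psmd14 tied at 4.89-fold and a −log10 q-value of 6.54. Psmd3 placed its strongest summit before the start at both ages, by 463 bp in young and 458 bp in aged HSCs. The lid genes listed in young only were Psmd6 (4.23-fold), Psmd8 and Psmd11 (4.04-fold). All 7 young lid genes stayed in the shortened young list, beside 5112 of the 7389 genes of the annotation listed in young HSCs.

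The constitutive 26S proteasome, taken as the 31 genes of the alpha and beta rings, base and lid, had 24 genes listed in young HSCs, 16 in aged HSCs, 12 at both ages and 3 at neither. The 14 core genes had 11 in young, 6 in aged and 4 at both ages, and the 17 genes of the regulatory particle had 13, 10 and 8. With these numbers of genes and no replicates, the core and the particle were not compared further.

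Of the 7 assembly chaperones, 3 were listed in young HSCs, 3 in aged HSCs and 2 at both ages. Of the 19S chaperones Psmd5 had peaks at both ages (3.83-fold on 17 reads at 233 bp in young, −log10 q-value 3.67, and 3.54-fold on 15 reads at 949 bp in aged, 2.64), Psmd10 in aged only and Psmd9 at neither. Of the 4 chaperones of the 20S core, Psmg1 had peaks at both ages (5.74-fold in young at 127 bp, and 4.86-fold on 21 reads in aged at 147 bp, −log10 q-value 5.83), and Psmg3 in young only at 2.47-fold on 21 reads, over a local background of 7.92 reads (−log10 q-value 1.73, 165 bp). Psmg2 and Psmg4 had none.

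Among the activators, which open the core gate in place of the 19S particle, Psme1 and Psme2 encode the interferon-inducible 11S ring. Psme2 was listed at both ages, with its strongest young summit 192 bp before the start and aged peaks of 4.20-fold on 18 reads and 3.55-fold on 25 reads (−log10 q-value 4.41, 137 bp before the start). The 4.20-fold peak had its summit 1038 bp before the Psme2 start, nearer to the start of the neighbour Rnf31. Psme1 was listed in young only (4.89-fold on 22 reads, −log10 q-value 6.54, 474 bp). Psme3, the nuclear activator, was listed in young only at 3.46-fold. Psme4 was listed at both ages (3.40-fold in young, and 4.10-fold on 18 reads at 250 bp in aged, −log10 q-value 4.12). The related gene Psme2b had no peak at either age. The inhibitor Psmf1 was listed at both ages, at 4.25-fold on 19 reads in young (−log10 q-value 4.78, 288 bp before the nearest start) and 3.76-fold on 16 reads in aged HSCs (3.14, 403 bp after that start). That start lies inside the gene. Psmc3ip, which is no subunit, was listed in young only at 4.32-fold on 29 reads (7.17, 215 bp before the start).

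The 5 genes listed in aged HSCs only were Psma7, Psmb1, Psmc1, Psmd1 and Psmd10. Psmb1 reached 4.86-fold on 21 reads (13.0 to 32.1, −log10 q-value 5.83). The summit of that peak lay 381 bp downstream of a start site inside the gene. Another Psmb1 peak, of 4.20-fold, lay nearer to the start of its neighbour Tbp. Psmc1 had the same strength, 4.86-fold on 21 reads, at 244 bp into the gene (chr12:100110213-100110585). Psmd1 reached 4.42-fold on 19 reads (4.71) at 127 bp before the nearest start. Psma7 had peaks of 4.20-fold on 18 reads (4.16) and 3.98-fold on 17 reads on either side of its start, the stronger nearer to the neighbour Ss18l1. Psmd10 had 3.98-fold on 17 reads (9.90 to 27.2, −log10 q-value 3.65) at 191 bp. The nearest young peaks lay 17564 bp (Psmd1), 17815 bp (Psma7), 26719 bp (Psmb1), 48837 bp (Psmc1) and 1271093 bp (Psmd10) from a start site. These pileups ran from 17 to 21 reads, beside the lowest pileup of 13 reads in either list.

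The 9 genes without H3K4me3 at either age were Psma8, Psmb5, Psmb11, Psmc2, Psmd7, Psmd9, Psme2b, Psmg2 and Psmg4. Beside Psmc2 and Psmb5, described above, the nearest young and aged peaks lay 15686 and 16134 bp away for Psmb11, 23860 and 23718 bp for Psma8, 31282 and 32337 bp for Psmg4, 74786 and 74452 bp for Psme2b, 81980 and 82230 bp for Psmg2, 85103 and 90133 bp for Psmd9, and 163479 and 492109 bp for Psmd7. Apart from Psmc2, none had a peak within 15 kb. Psmb5, Psmc2 and Psmd7 were the 3 of the 31 constitutive 26S genes in neither list.

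H3K4me3 summits lay mostly just downstream of the start sites. Of 56 young peaks at these genes 43 had the summit downstream of the nearest start site of the gene and 13 upstream of it. Of 32 aged peaks the counts were 21 and 11. The median distance between summit and start was 281 bp in young (44 to 971 bp) and 247 bp in aged HSCs (7 to 1038 bp). The peaks were narrow, with a median width of 278 bp in young and 316 bp in aged HSCs, and pileups ran from 15 to 36 reads in young and from 15 to 29 in aged HSCs. Of the young peaks 25 (44.6%) overlapped an aged peak, and of the aged peaks 22 (68.8%) overlapped a young one. The young list is the longer as a whole, with 11371 peaks against 6723. Shares over the promoter peaks of all genes are not given here for position or overlap.

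**Figure D3:**
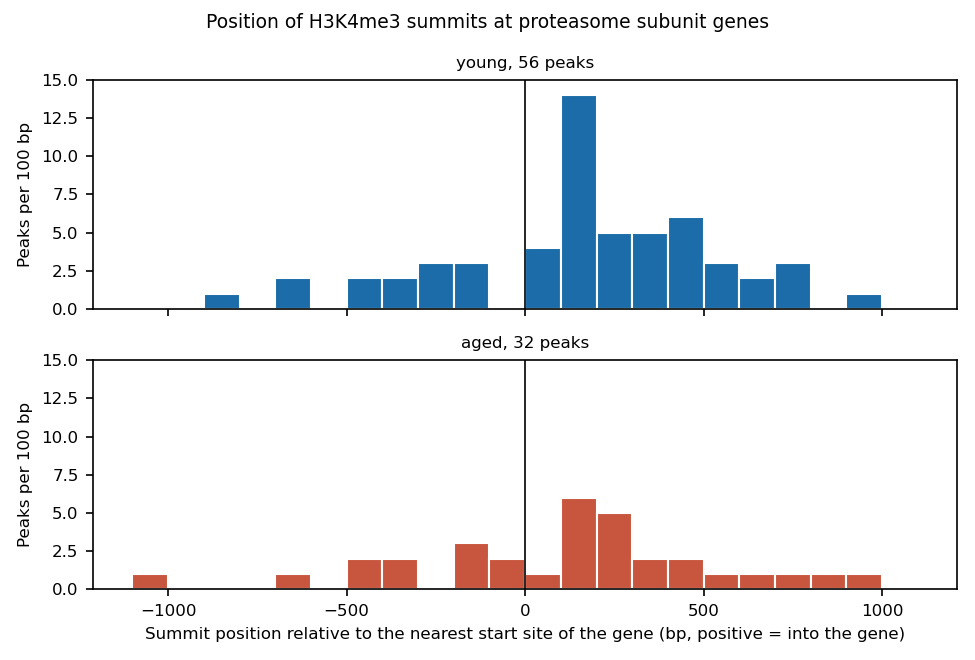
Number of H3K4me3 peaks at proteasome subunit genes per 100 bp of summit position relative to the nearest start site of the gene (bp, positive values into the gene), for 56 peaks in young HSCs (top) and 32 in aged HSCs (bottom). In both, most summits lie to the right of the start, 43 in young and 21 in aged HSCs.

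Several of these genes share a promoter with a neighbour. A start site of another protein-coding gene lay within 1 kb for 12 of the 50 genes (24.0%, against 11.8% of all), and in 11 of them the neighbour ran on the opposite strand. The closest pairs were Psmc2 with Dnajc2 (32 bp), Psmb9 with Tap1 (38 bp), Psma2 with Mrpl32 and Psmc5 with Ftsj3 (both 75 bp), Psma7 with Ss18l1 (76 bp), Psmd13 with Sirt3 (99 bp), Psmb1 with Tbp (137 bp) and Psmd10 with Atg4a (179 bp). Of the 12 genes with a neighbour 7 were listed in young and 7 in aged HSCs (58.3% each), and of the 38 without 29 (76.3%) and 17 (44.7%). Over all genes the shares were 65.7% in young and 47.9% in aged HSCs with a neighbour, and 29.5% and 20.0% without. The proteasome genes with a neighbour were thus below all genes with a neighbour in young and above them in aged HSCs, and those without a neighbour were above all genes without one at both ages, none of which was tested. Of the 5 genes listed in aged only, Psma7, Psmb1 and Psmd10 have such a neighbour, and at Psma4 in young HSCs, as at Psmb9, every peak was nearer to the neighbour (AY074887).

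The promoters of the set were rich in CpG dinucleotides. The ratio of observed to expected CpG had a median of 0.749 over the 42 genes with a RefSeq promoter and 0.601 over all, and the median GC content was 58.2% and 57.0%. Of the 42, 30 had a ratio of 0.6 or more (71.4%), against 50.1% of the 16530 protein-coding promoters. In these 30, 24 had H3K4me3 in young (80.0%) and 13 in aged HSCs (43.3%), beside 55.7% and 38.8% of the 8289 genes of the annotation at that ratio. In the 12 below 0.6 the counts were 8 (66.7%) and 6 (50.0%), beside 15.3% and 10.4% of 8241 genes. The lowest ratios belonged to Psme2b (0.0904) and Psmb11 (0.165), without a peak at either age, and to Psmb10 (0.192), listed in young only. Psmb5 (0.999) and Psmc2 (0.984) combined a high ratio with no peak.

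**Figure D4:**
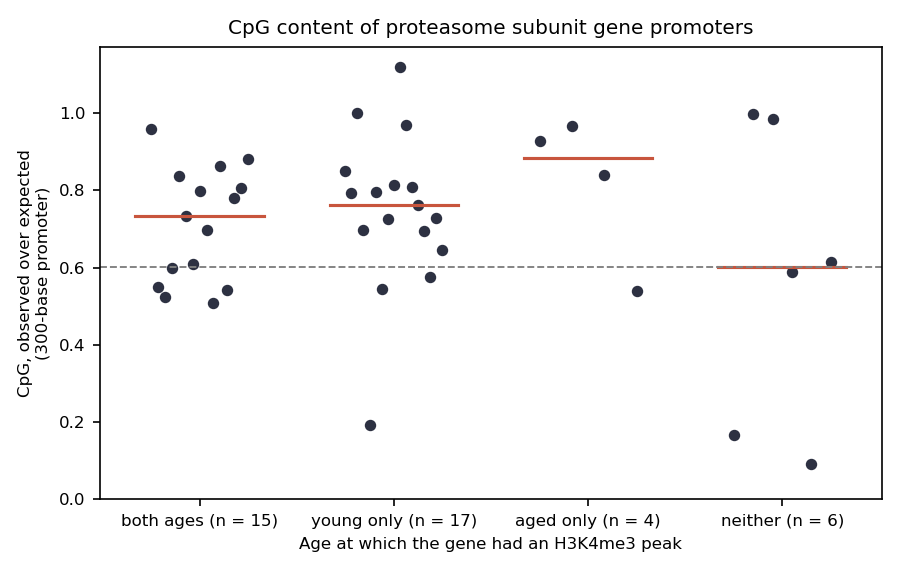
Ratio of observed to expected CpG in the 300-base promoter (vertical axis) of the 42 genes with a RefSeq promoter, by the age at which the gene had an H3K4me3 peak, with red lines at the group medians and a dashed line at the median of all genes (0.601). Group medians were 0.734 for both ages, 0.763 for young only, 0.884 for aged only and 0.602 for neither, and the points of the groups overlap.

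Polycomb marks were rarely listed at these promoters. H3K27me3 was listed at 1 of 50 in young HSCs (2.00%, 0.354 to 10.5), against 16.0% of all genes, and at none in aged HSCs (interval up to 7.13%), against 8.24%. H2AK119ub1 was listed at none in young HSCs (interval up to 7.13%), against 1.91%, and at 1 of 50 in aged HSCs (2.00%), against 14.0%. Counted anywhere in the gene body, H3K27me3 was listed at Psmd10 at both ages (1 of 50 each, against 21.2% in young and 12.5% in aged HSCs), and H2AK119ub1 at none in young (against 4.11%) and at Psmd14 and Psme4 in aged HSCs (against 22.1%). The longer aged H2AK119ub1 list thus held 1 of these promoters. The ribosomal sets were again alike, with no H3K27me3 at any promoter of either set and, in aged HSCs, H2AK119ub1 at 5 of 83 cytosolic (6.02%) and 4 of 78 mitochondrial genes (5.13%).

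The H3K27me3 promoter belonged to Psmd10, a 19S chaperone also known as gankyrin and the set's 1 gene on the X chromosome. In young HSCs a region of 265 bp (chrX:140955925-140956189) was enriched 2.91-fold with a −log10 q-value of 1.79, and no H3K4me3 peak was listed. In aged HSCs no H3K27me3 region was listed at the promoter, and the H3K4me3 peak described above was. Of the 948 genes on the X chromosome 25.5% had promoter H3K27me3 in young HSCs, beside 15.6% of the genes on other chromosomes, and the aged shares were 10.7% and 8.13%. The part of the chromosome in the Psmd10 values was not tested.

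The H2AK119ub1 promoter belonged to Psme4, an activator used in DNA repair and in spermatogenesis. The aged region of 200 bp (chr11:30772163-30772362) was enriched 3.33-fold with a −log10 q-value of 2.04, centred 536 bp into the gene, and overlapped the second of the aged H3K4me3 peaks of the gene (chr11:30772238-30772657, 2.86-fold on 29 reads). Of the 5089 genes with aged H3K4me3, 690 (13.6%) also had aged H2AK119ub1. Whether both marks lay on the same chromosomes or in different cells cannot be read from pooled lists.

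Related genes outside the symbol rule were read from 3 lists, whose counts stand beside the shares of all genes of 33.8% in young and 23.3% in aged HSCs for H3K4me3. Of 8 further proteasome genes, 5 had H3K4me3 in young, 5 in aged HSCs and 4 at both ages, those 4 being the lid subunit Sem1, the deubiquitinase Usp14, the assembly factor Pomp and Txnl1. Adrm1, the ubiquitin receptor, and Uchl5, its partner, had none. Of 8 genes that control proteasome gene transcription, 5 had H3K4me3 in young HSCs and 1 in aged HSCs. That 1 was Nfe2l2, listed at both ages, whereas Nfe2l1, the main activator of proteasome genes, its processing enzyme Ngly1, its partner Mafk and the Nfe2l2 inhibitor Keap1 were listed in young only. Nfe2l1 and Mafg, 2 of these 8 genes, had H2AK119ub1 in aged HSCs, beside 14.0% of all genes. Of 16 genes for ubiquitin and its delivery, 8 were listed in young and 6 in aged HSCs, and Ubb, Rps27a, Vcp and Zfand5 at both ages. Over the 32 genes of the 3 lists, 18 were listed in young, 12 in aged and 9 at both ages, and none had H3K27me3 at either age, beside 16.0% of all genes in young and 8.24% in aged HSCs.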

How the data were processed

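ChIP-seq was performed in young and aged HSCs with 2 libraries per mark and age and 2 inputs per age. The authors aligned single reads to mm10 with Bowtie2. MACS2 2.2.6 is listed in the submitters' processing notes, but the caller of these lists is not given in the sources used here. The deposited pooled lists give, for each peak, a linear ratio (the fold enrichment over background) and the −log10 of the p-value and q-value. Values of broad regions are averages. Whether the broad lists hold both replicates is uncertain. Multiply aligned reads, duplicates and the caller's threshold affect what is listed.

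Promoters were 1 kb on either side of 41438 start sites of protein-coding transcripts (GENCODE M21). Overlaps of at least 1 bp, pileups (fold = (pileup + 1) / (background + 1), Poisson p-value, tolerance 0.0005 on −log10 p) and intervals were computed with Python 3.11.15 (scipy 1.17.1, pandas 2.3.3, numpy 2.4.6), and plots drawn with matplotlib 3.10.9. A whole pileup was recovered for 100% of peaks in both H3K4me3 lists, and the code was tested on simulated data. Total reads per library are unknown, and the lowest background was 3.70 reads in young and 3.52 in aged HSCs. Genes were named by class, with full values for the 2 strongest by −log10 q-value in each class and age, the 5 strongest at each age, all aged-only genes and all genes with a Polycomb mark. The genes, gene lists, motifs and alternatives were chosen with earlier results of these data known, and the cell type genes after the peaks were seen. Paaf1 was not analysed here.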

Additional observations from a re-analysis of the deposited data

How the results depend on the processing

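The 10 counts and medians of promoter marking were recomputed under 7 alternatives, which gave 70 values. Of these, 63 kept their direction and stayed within 1.5 times the reported count or within the interval of the reported median. The other 7 did not. Some of the 63 could not have moved. With the same number of peaks at both ages the shorter list of each mark is unchanged, and a count of 0 stays 0 under a stricter rule. With the same number of peaks at both ages, the difference in H3K4me3 genes between the ages was -4 rather than -12, no promoter had H3K27me3 in young HSCs and none had H2AK119ub1 in aged HSCs (counts of 0 and 0, beside 11.2% and 2.92% of all genes). With peaks below a −log10 q-value of 4 left out, the young H3K27me3 and the aged H2AK119ub1 counts were likewise 0 and 0, beside 2.18% and 0.188% of all genes. With promoters of 2 kb on either side, 2 genes had H3K27me3 in young HSCs (Psmd10 and Psmf1, beside 18.4% of all genes) and 3 had H2AK119ub1 in aged HSCs (Psmb3, Psme4 and Psmg2, beside 17.8%). The Polycomb counts thus rest on single weak regions. Over the alternatives the H3K4me3 count ran from 28 to 37 genes in young and from 18 to 25 in aged HSCs, and the count at both ages from 13 to 20. No paired analysis was possible because the lists are pooled, 1 for each mark and age. Depth limits single peaks, since a listed peak stood on 13 reads or more.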
